A study of Homo sapiens with 9 samples.

Results

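RNA from C28/I2 cells that received a Scrambled construct was compared with RNA from Control cells of the same line, to measure what delivery of a non-targeting construct did to the transcriptome and how large a change these libraries leave room for. The comparison used 3 Scrambled and 3 Control libraries, 6 of the 9 libraries in the study, and 19812 of 60671 genes passed the filter on low counts. C28/I2 is an immortalised human chondrocyte line. The other 3 libraries carried a short hairpin RNA (shRNA) against carbonic anhydrase 2 (CA2), the enzyme named in the study's title. The labels give neither the sequence nor the vector of the Scrambled construct, nor whether Control cells went through a mock transduction. They also do not say whether replicates were separate cultures, so p-values measure the spread between these libraries, which may be technical.

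A scrambled shRNA is the usual control for the delivery of a hairpin: it is processed like any other hairpin but is meant to match no transcript. Cells can nonetheless answer foreign nucleic acid. Double-stranded RNA in the cytosol is read by RIG-I-like receptors, PKR and the 2′-5′ oligoadenylate synthetases. The RIG-I-like receptors signal through interferon regulatory factors to type I interferon and then, through STAT2 and IRF9, to interferon-stimulated genes. Hairpins also enter the microRNA pathway (Drosha, Exportin-5, Dicer, Argonaute), and transduction and selection can engage p53, stress and inflammatory programmes.

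STAT2 and IRF9 act in a complex that binds the interferon-stimulated response element, searched here on both strands as GAAA, 2 bases of any kind and GAAA. The element was present in 19 of the 31 interferon-stimulated genes tested that had a RefSeq promoter window (250 bases before to 50 after the start, GRCh38.p14), or 61.3%, and in 3.57% of all 35116 windows of that length. The sequences at 5 interferon-stimulated genes and at the sensor OAS3, whose values are given with the results, are shown 5′ to 3′ on the gene's strand, with 1 match of each promoter in capitals. They are shown because this is the sequence through which interferon acts on its targets. SAMD9 holds 1 match, and each of the other 5 holds 2, so a further match can stand in lower case within a printed stretch. A match on the opposite strand reads TTTC, 2 bases and TTTC.
ISG15 (chr1:1013375-1013414, plus strand): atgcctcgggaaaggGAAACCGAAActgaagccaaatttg
IFIT1 (chr10:89392505-89392544, plus strand): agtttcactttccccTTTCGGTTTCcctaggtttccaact
IFITM3 (chr11:320871-320910, minus strand): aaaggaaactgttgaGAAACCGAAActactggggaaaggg
IFI27 (chr14:94110613-94110652, plus strand): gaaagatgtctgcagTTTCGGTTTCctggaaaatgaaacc
SAMD9 (chr7:93118091-93118130, minus strand): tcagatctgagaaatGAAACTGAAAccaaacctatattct
OAS3 (chr12:112938316-112938355, plus strand): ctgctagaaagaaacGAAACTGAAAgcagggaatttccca

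Total counts ran from 20715858 to 34261244 per Control library and from 22352961 to 29605026 per Scrambled library, and the ranges overlapped. One library of each group stood apart. The share of counts from the mitochondrial genome was 4.06% in Control 3 and 4.08% in Scrambled 2, and it lay between 5.85% and 6.86% in the other 4. Over all 15 pairs of the 6 libraries, the root-mean-square log2 difference was smallest between Control 1 and Scrambled 3 (0.309) and largest between Control 3 and Scrambled 1 (0.455). Pairs from different groups differed by 0.383 on average and pairs within a group by 0.388. Main results are also given without Control 3 and Scrambled 2. The targeted gene CA2 had levels of 2.31, 2.00 and 1.94 CPM (counts scaled to library size by the TMM method) in Control and 1.82, 1.96 and 2.06 CPM in Scrambled. The Scrambled and Control ranges of CA2 overlapped (log2 difference -0.09, 95% interval -0.53 to 0.35), and all 3 CA2 shRNA libraries lay below both. The CA2 shRNA group differed from Scrambled by -0.77 (edgeR adjusted p 0.0276) and from Control by -0.86 (adjusted p 0.0159).

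No gene differed between Scrambled and Control cells in edgeR's quasi-likelihood test at an adjusted p of 0.05 (0 higher and 0 lower, 0% of genes tested). The lowest adjusted p was 0.0978, for TAS1R1, and every other gene was at 0.9997 or above. At an unadjusted p under 0.05 there were 550 genes, 2.78% of those tested, with 318 higher and 232 lower in Scrambled. This share is below the 0.05 that the threshold itself would give if no gene differed. By level it was 4.56% under 0.5 CPM and 0.454% at 100 CPM and over. Why it was low was not tested. All 3 Scrambled libraries lay above all 3 Control libraries for 726 genes (3.66%) and below them for 623 (3.14%), together 6.81%. The unadjusted count moved with single libraries: it was 2009 without Scrambled 2 and 1357 without Control 1, but 324 without Control 2, 334 without Control 3 and 333 without Scrambled 3. Without both Control 3 and Scrambled 2 it was 1048, and in none of these 6 fits did a gene pass the adjusted threshold. DESeq2 called 1 gene, TAS1R1.

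**Figure D1:**
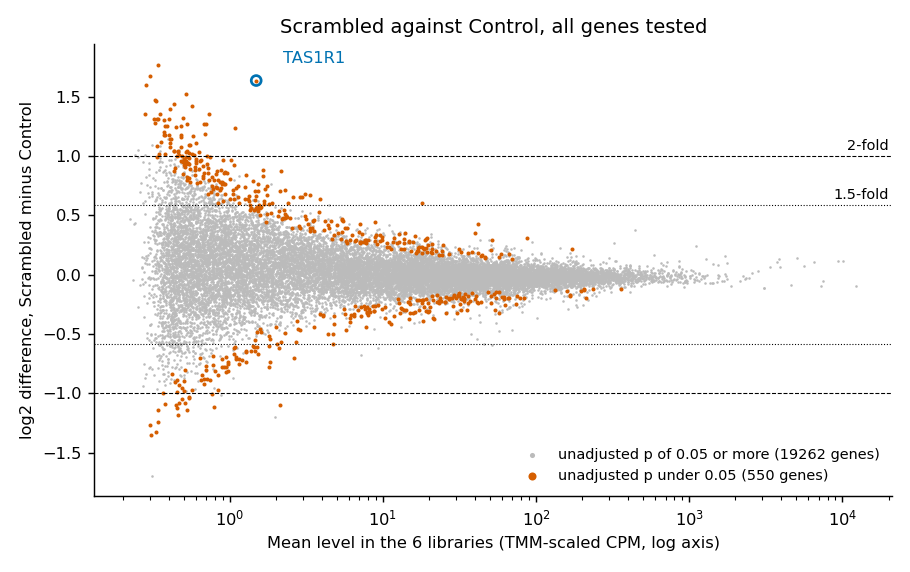
Each point is 1 of the 19812 genes tested: mean level in the 6 libraries (TMM-scaled CPM, log axis) against the log2 difference, Scrambled minus Control, with 550 genes at an unadjusted p under 0.05 in orange and lines at 1.5-fold and 2-fold. The cloud narrows around 0 as the level increases, and TAS1R1 (circled) lies outside it at 1.64.

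The differences themselves were small. The median absolute log2 difference was 0.081 over all genes tested, and 16432 genes (82.9%) had an estimate under 1.2-fold. Of the 13857 genes with a mean of at least 2 CPM, 19 had an estimate of 1.5-fold or more and 1 of 2-fold or more, the noncoding transcript CEP192-DT. The comparison was also precise enough to bound most genes: the 95% interval of the fold change lay wholly inside 2-fold for 84.3% of genes tested (16692), inside 1.5-fold for 64.4% (12759) and inside 1.2-fold for 36.7% (7273). A test of equivalence (a pair of one-sided tests per gene, Benjamini-Hochberg adjusted) placed 17508, 13092 and 6644 genes inside these limits. Among protein-coding genes, 94.0% of 14088 lay inside 2-fold and 82.1% inside 1.5-fold. Without Control 3 and Scrambled 2, 12099 genes lay inside 1.5-fold, 11785 of them in both fits.

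Precision followed the level. Under 0.5 CPM, 9.93% of 1470 genes were bounded inside 2-fold and none inside 1.5-fold. From 0.5 to 2 CPM, 61.9% of 4485 genes lay inside 2-fold and 4.82% inside 1.5-fold. From 2 to 10 CPM, 98.3% lay inside 2-fold and 72.7% inside 1.5-fold. From 10 to 100 CPM, 96.9% lay inside 1.5-fold and 65.7% inside 1.2-fold, and at 100 CPM and over 98.8% and 91.2% did. For most genes under 0.5 CPM the interval still held a 2-fold change in at least 1 direction. Whether a change of that size would have been detected in these genes was not tested. The narrowest intervals belonged to DDX5, an RNA helicase (340.5 ± 2.93 CPM in Control and 325.5 ± 2.45 in Scrambled, SD, n = 3), RAI1 and FANCI. In each of these 3 genes the interval stayed within 1.12-fold of no change. DDX5 had all Scrambled libraries below Control and FANCI had all above, as 3.14% and 3.66% of all genes did.

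**Figure D2:**
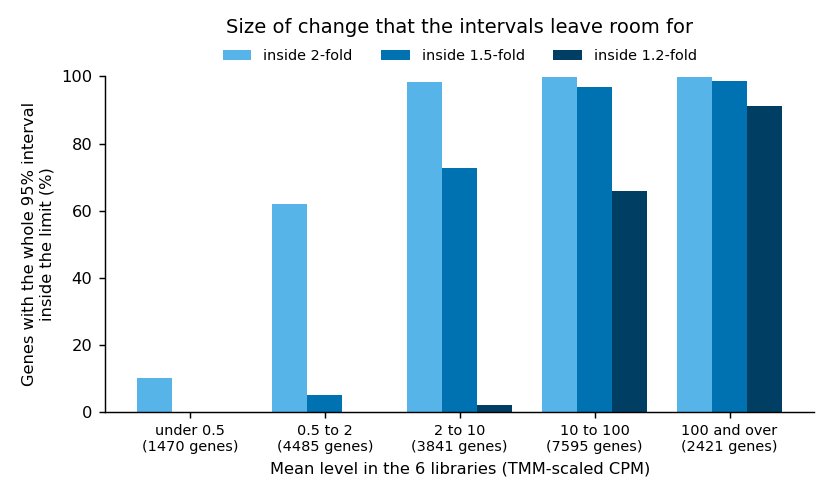
Share of genes (%) whose whole 95% interval lies inside 2-fold, 1.5-fold and 1.2-fold, by mean TMM-scaled CPM in the 6 libraries. The share inside 1.5-fold is 0 under 0.5 CPM, 72.7% from 2 to 10 CPM and 98.8% at 100 CPM and over.

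TAS1R1 encodes a subunit of the umami taste receptor and lies at chr1:6555307-6579755 on the plus strand (GRCh38, as the deposited tables give it). It was singled out after its values were seen, since its mean level was under the 2 CPM that the naming rule asks for. Its counts were 21, 10 and 26 in Control and 58, 52 and 68 in Scrambled, which are 0.882, 0.488 and 0.763 CPM against 2.58, 1.92 and 2.30 CPM. All 3 Scrambled libraries lay above all 3 Control libraries, and the fitted difference was 1.64 on the log2 scale (SE 0.26, 95% interval 1.09 to 2.19), or 3.11-fold. It did not pass in edgeR (adjusted p 0.0978) but did in DESeq2 (adjusted p 0.00507) and in edgeR without the filter on low counts (adjusted p 0.000142). Over the 19 alternative settings the difference ranged from 1.47 to 1.80 and the adjusted p from 0.000142 to 1, and without Control 3 and Scrambled 2 it was 1.80 (edgeR, adjusted p 0.0952).

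In the CA2 shRNA libraries TAS1R1 stood at 1.95, 2.23 and 1.79 CPM, so all 6 libraries that carried a construct lay above all 3 Control libraries. For TAS1R1 the CA2 shRNA group differed from Control by 1.44 (95% interval 0.88 to 2.01, edgeR adjusted p 0.000842), and from Scrambled by -0.19 (95% interval -0.67 to 0.28, adjusted p 0.625). The first of these comparisons uses the same Control libraries as Scrambled against Control, so it is not a second observation of the Control level. The partner subunit TAS1R3 was at 4.42 ± 1.04 CPM in Control and 4.78 ± 1.39 CPM in Scrambled (SD, n = 3). Genes on either side differed less: NOL9 differed by -0.01, ZBTB48 by 0.07, KLHL21 by -0.09 and PHF13 by -0.06 on the log2 scale, each with an interval inside 1.5-fold. Whether the reads at TAS1R1 come from its annotated transcript cannot be read from gene counts, and this was not tested.

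**Figure D3:**
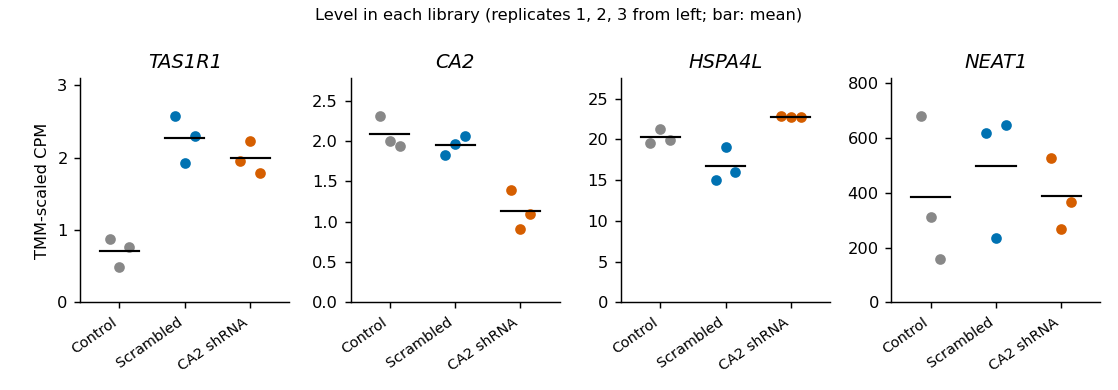
TMM-scaled CPM of TAS1R1, CA2, HSPA4L and NEAT1 in each of the 9 libraries, 3 per group, with bars at the group mean. TAS1R1 lies between 0.488 and 0.882 CPM in Control and between 1.79 and 2.58 CPM in the 6 libraries with a construct, whereas CA2 overlaps between Control and Scrambled.

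Behind TAS1R1 came the protein-coding genes with the smallest p among those at 2 CPM or more, with absolute log2 differences from 0.20 to 0.72. On the higher side were CEACAM19, an adhesion-family membrane protein (1.74 ± 0.154 CPM in Control and 2.86 ± 0.0752 in Scrambled, SD, n = 3, log2 difference 0.72), C2orf92 (0.64), TMEM74B (0.71), VPS33B, which acts in vesicle fusion with lysosomes (0.45), MCF2L2 (0.33), INPP5B, a phosphoinositide phosphatase (0.31), PPT2, a lysosomal thioesterase (0.30), and BLOC1S1, a subunit of lysosome-positioning complexes (0.28). On the lower side were COMMD8 (-0.56), ARL6, a small GTPase of the primary cilium (-0.46), GPR137C (-0.41), PRMT6, an arginine methyltransferase (-0.35), EIF2S3B (-0.32), SPAG1 (-0.31), HSPA4L, a heat shock protein (-0.28), and ADO (-0.20). None of the 16 passed (edgeR adjusted p 0.9997 each), and the rule that chose them required groups that do not overlap. EIF2S3B has a near-identical copy, EIF2S3, so its reads may be shared. In the CA2 shRNA libraries CEACAM19 was at 1.15, 1.27 and 1.35 CPM, under both other groups, while COMMD8 was at 3.54, 3.62 and 3.40 CPM, in the range of Control.

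No receptor of foreign nucleic acid passed the test. Of 26 sensors and adaptors tested, 24 had an interval inside 1.5-fold, and the median log2 difference was -0.0044 against 0.0017 over all genes tested. None was at an unadjusted p under 0.05 in edgeR. Without Control 3 and Scrambled 2, 22 were inside 1.5-fold and the median was 0.01. In that fit 3 were at an unadjusted p under 0.05, where 5.29% of all genes were. PKR (EIF2AK2), which halts translation on double-stranded RNA, had 136.6, 149.2 and 155.2 CPM in Control and 109.4, 159.8 and 135.8 CPM in Scrambled. The ranges overlapped, with Scrambled 1 lowest. RIG-I (RIGI) had 6.18, 6.34 and 5.75 CPM in Control and 4.13, 6.76 and 5.52 CPM in Scrambled, again with Scrambled 1 lowest. MAVS, the adaptor both RIG-I-like receptors use, was bounded within 1.08-fold and the RNA-editing enzyme ADAR within 1.09-fold. OAS3 had 187.2, 195.1 and 203.1 CPM in Control and 184.9, 191.3 and 182.3 CPM in Scrambled and differed by -0.07 (95% interval -0.18 to 0.04). The widest interval belonged to OASL, at 1.30 CPM in Control, which reached 1.69-fold. IFIH1, the receptor MDA5, was the only sensor whose groups did not overlap. All 3 Scrambled libraries (1.64, 1.81 and 1.83 CPM) lay below Control (1.93, 2.00 and 2.02 CPM). That is 3.85% of the sensors tested, beside 3.14% of all genes. ZBP1, AIM2 and TLR9 had 2, 1 and 1 counts in the 6 libraries and were not tested.

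Among interferon-stimulated genes, none of the 36 members tested passed and the median difference was -0.0040. Inside 1.5-fold lay 31 intervals (86.1%, against 64.4% of all genes tested). The share depends on the level. At 2 CPM or more 31 of 32 members were inside, where 72.7% to 98.8% of all genes were, by level. ISG15, an antiviral ubiquitin-like protein with the element printed above, had 11.1, 11.7 and 11.3 CPM in Control and 11.2, 10.7 and 10.1 CPM in Scrambled, and the upper end of its interval was 1.10-fold. IFIT1, which binds foreign RNA ends, had 3.61, 3.71 and 3.32 CPM in Control and 3.42, 4.58 and 4.16 CPM in Scrambled. Its groups overlapped and its upper end was 1.44-fold. For MX1, an antiviral GTPase, the upper end was 1.13-fold, and for IFITM3, which blocks virus entry (326.3, 338.6 and 363.5 CPM in Control, 324.8, 337.6 and 334.0 CPM in Scrambled), 1.06-fold. Over the whole list the median upper end was 1.15-fold. The summed level of the list lay between 1475 and 1604 CPM in Control and between 1519 and 1551 CPM in Scrambled. Without Control 3 and Scrambled 2, 30 members were inside 1.5-fold and the median difference was 0.03. In that fit 2 members were at an unadjusted p under 0.05 in edgeR, where 5.29% of all genes were.

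The member with the largest difference was IFI27, an interferon-induced mitochondrial protein. It had 1.26, 1.46 and 1.03 CPM in Control and 1.78, 1.77 and 2.00 CPM in Scrambled, and was the only member with all Scrambled libraries above all Control libraries, beside 3.66% of all genes. The difference was 0.59 (95% interval 0.11 to 1.07, edgeR adjusted p 0.9997), and the upper end of 2.09-fold was the highest of the list. In the opposite direction SAMD9 had 7.81, 10.1 and 8.83 CPM in Control and 5.29, 8.09 and 7.58 CPM in Scrambled, with overlapping groups and a difference of -0.34. CMPK2, a mitochondrial nucleotide kinase, was the only member with all Scrambled libraries (12.4, 11.9 and 11.4 CPM) below all Control libraries (13.2, 13.7 and 13.2 CPM), at a difference of -0.17. CMPK2 is 2.78% of the list, beside 3.14% of all genes. STAT2 differed by 0.17 (95% interval 0.01 to 0.33). IFI27, SAMD9 and STAT2 were the members at an unadjusted p under 0.05, 8.33% of the list against 2.78% of all genes. Genes with the response element had a median difference of -0.04 (19 members, -0.34 to 0.59, 16 with intervals inside 1.5-fold), and the 12 without it 0.0075.

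**Figure D4:**
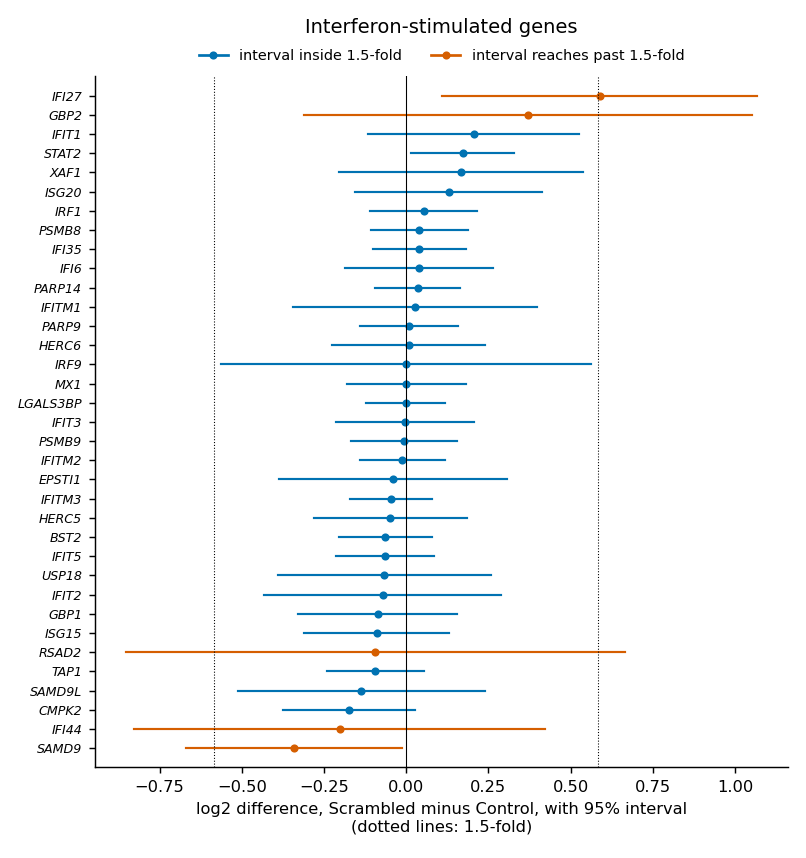
Log2 difference, Scrambled minus Control, of 35 of the 36 interferon-stimulated genes tested, with 95% intervals and dotted lines at 1.5-fold; blue intervals lie inside the limit (30 genes) and orange ones reach past it. Points lie on both sides of 0, from -0.34 (SAMD9) to 0.59 (IFI27).

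The cytokines upstream had few counts. IFNB1 had 4 counts in the 6 libraries together, IFNL1 2, IFNL2 and IFNL3 3 each, and IFNG is listed at 0. Receptor genes were expressed in both groups, with a difference of -0.17 (95% interval -0.37 to 0.04) for IFNAR1, a chain of the type I receptor. Of 11 receptor and signalling genes tested 10 had an interval inside 1.5-fold and none passed, nor was any at an unadjusted p under 0.05 in edgeR. Without Control 3 and Scrambled 2, 8 were inside 1.5-fold. In that fit IFNAR1 differed by -0.24 (95% interval -0.43 to -0.04, edgeR adjusted p 0.9145). There 2 of the 11 were at an unadjusted p under 0.05, where 5.29% of all genes were.

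Of 25 genes of small RNA production and silencing, the machinery that a hairpin borrows, none passed, 23 were bounded inside 1.5-fold and 18 inside 1.2-fold, and the median difference was 0.02. DROSHA, which cuts primary microRNAs, had 211.2, 206.0 and 216.6 CPM in Control and 210.7, 206.7 and 210.2 CPM in Scrambled. XPO5, the exporter of hairpins from the nucleus, differed by 0.02 (95% interval -0.10 to 0.14), DICER1 by 0.04 (-0.17 to 0.24) and AGO2, the slicing Argonaute, by 0.02 (-0.14 to 0.17). DGCR8, Drosha's partner, was less certain: it had 92.2, 71.5 and 56.8 CPM in Control and 101.9, 61.1 and 92.0 CPM in Scrambled, lowest in Control 3 and Scrambled 2. With all libraries the DGCR8 interval reached 1.72-fold, and without those it reached 1.39-fold around a difference of 0.25 (95% interval 0.02 to 0.48, edgeR adjusted p 0.919). LIN28B, under 1 CPM, had the widest interval, reaching 2.11-fold. Among host factors of retroviruses, 25 of 25 tested genes lay inside 1.5-fold and 20 inside 1.2-fold. These include PSIP1, which tethers lentiviral integrase to chromatin (-0.12), TRIM5 (-0.14), SAMHD1 (-0.0068) and the HUSH silencing subunits TASOR (-0.06), MPHOSPH8 (-0.0042) and PPHLN1 (0.08). PPHLN1 was the only member whose groups did not overlap, with Scrambled above Control. That is 4% of the genes tested in the list, beside 3.66% of all genes. TREX1, a further host factor, is listed at 0 in all 6 libraries and was not tested. APOBEC3A, APOBEC3D and APOBEC3H had 22, 28 and 44 counts in the 6 libraries and were not tested either.

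Inflammatory and immediate early genes gave single differences without a shared direction. Of 25 NF-kappa B targets and cytokines tested none passed and 20 were inside 1.5-fold, among them all 20 members at 2 CPM or more. TNF, CCL5 and CSF2 had 9, 11 and 50 counts in the 6 libraries, CXCL10 and CCL20 are listed at 0, and none of these was tested. NFKBIA, the inhibitor that NF-kappa B induces, differed by 0.00072 (95% interval -0.12 to 0.12). IL6 differed by 0.08 (95% interval -0.09 to 0.26), CXCL8 by 0.06 (-0.20 to 0.32) and TNFAIP3 by -0.02 (-0.18 to 0.13). ICAM1, an adhesion molecule, was at 0.966, 0.488 and 1.03 CPM in Control and 1.51, 1.70 and 1.12 CPM in Scrambled, all above Control. Its difference was 0.75 (95% interval 0.09 to 1.41, edgeR adjusted p 0.9997). It was the only member above Control throughout, 4% of the list, beside 3.66% of all genes. Among 27 immediate early genes, 24 lay inside 1.5-fold, 2 had all Scrambled libraries above Control and 5 below, or 7.41% and 18.5%, beside 3.66% and 3.14% of all genes. KLF2, a transcription factor, had 21.9, 21.2 and 20.9 CPM in Control and 18.7, 17.5 and 18.0 CPM in Scrambled, a difference of -0.24 (95% interval -0.40 to -0.07). The others below Control were FOSL1, FOSL2, KLF10 and SRF, with differences from -0.11 to -0.04, and those above were NR4A1 (0.14) and NR4A3 (0.45). FOS, JUN, EGR1 and MYC overlapped between groups.

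Heat shock genes had differences mostly below 0, and none passed. Of 19 chaperone genes tested 18 had a difference below 0 and 17 were inside 1.5-fold, and the median was -0.07. Other lists were also one-sided, with 26 of 29 S phase genes, 19 of 23 tricarboxylic acid cycle genes and 22 of 30 antioxidant genes below 0. Over all genes the sign depended on the level: 57.0% of genes from 10 to 100 CPM and 63.6% of those at 100 CPM and over had a difference below 0. HSPA4L lay between 19.6 and 21.3 CPM in Control and between 15.1 and 19.1 CPM in Scrambled, all below Control. HSPA1A had 166.1, 169.0 and 168.3 CPM in Control and 151.7, 163.2 and 142.6 CPM in Scrambled, also all below Control, although its near-identical copy HSPA1B overlapped between groups and reads may be shared between them. HSPA4L and HSPA1A were the only members below Control throughout, 10.5% of the list, beside 3.14% of all genes. HSP90AA1 differed by -0.07 (95% interval -0.20 to 0.06) and HSPA8, the constitutive chaperone, by -0.06 (-0.19 to 0.06). DNAJB1, a co-chaperone induced by heat, differed by 0.0052. HSPA4L, HSPA1A and DNAJB4 (-0.32) were at an unadjusted p under 0.05, 15.8% of the list against 2.78% of all genes. Without Control 3 and Scrambled 2, 19 of 19 were below 0, the median was -0.11 and 7 were at an unadjusted p under 0.05, where 5.29% of all genes were. The summed level was 7028, 7170 and 7252 CPM in Control and 6786, 7265 and 6585 CPM in Scrambled, so Scrambled 2 was the highest of all 6 and the groups overlapped.

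Other stress programmes were bounded tightly. All 24 genes of the endoplasmic reticulum stress response had an interval inside 1.5-fold, with HSPA5, its main chaperone, at 0.02 (95% interval -0.09 to 0.14) and XBP1 at 0.0059 (-0.12 to 0.13). PPP1R15A, which restarts translation, was the only member whose groups did not overlap (-0.11). That is 4.17% of the list, beside 3.14% of all genes below Control. Of 24 ATF4 targets 21 were inside 1.5-fold, and ATF4 itself differed by 0.05. Of 30 antioxidant genes 29 were inside 1.5-fold and none had groups that did not overlap. HMOX1, the heme oxygenase induced by oxidants, had a difference of -0.17 (95% interval -0.41 to 0.07) and NQO1 one of -0.04 (-0.17 to 0.10).

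Proliferation and survival genes were among the best measured. In S phase 29 of 29 genes lay inside 1.5-fold and 28 inside 1.2-fold, with PCNA, the replication clamp, at 324.9, 349.7 and 357.0 CPM in Control and 336.7, 338.7 and 336.1 CPM in Scrambled. In G2 and mitosis 29 of 30 lay inside 1.5-fold. MKI67 differed by 0.10 (95% interval -0.06 to 0.25), CCNB1, the mitotic cyclin, by 0.02 and PLK1 by -0.04, and NUSAP1, under 1 CPM, had an interval that reached 2.51-fold. Of 30 p53 targets 27 lay inside 1.5-fold. CDKN1A, the p21 inhibitor, had 133.1, 167.1 and 172.7 CPM in Control and 177.2, 160.9 and 156.8 CPM in Scrambled, and MDM2 differed by -0.0082 (95% interval -0.17 to 0.16). FDXR, PPM1D and TNFRSF10D had all Scrambled libraries above Control, with differences of 0.10 to 0.12. These are 10% of the list, beside 3.66% of all genes. Of 29 apoptosis regulators 28 lay inside 1.5-fold. FADD, the adaptor of death receptors, was at 7.83 ± 0.281 CPM in Control and 6.48 ± 0.303 in Scrambled (SD, n = 3). Its groups did not overlap (-0.27, edgeR adjusted p 0.9997). It was among 2 members with all Scrambled libraries below Control, 6.9% of the list, beside 3.14% of all genes.

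**Figure D5:**
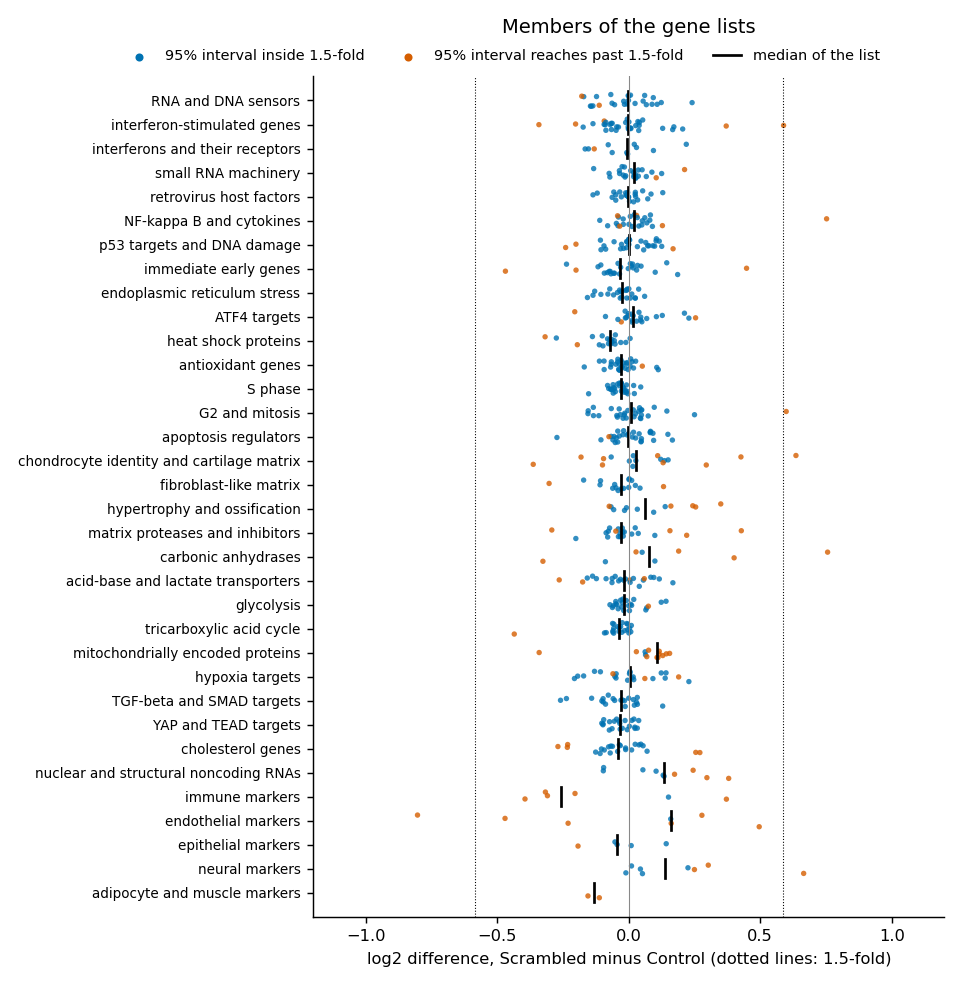
Log2 difference, Scrambled minus Control, of every tested member of the 34 gene lists (1 point per gene, blue where the 95% interval lies inside 1.5-fold and orange where it reaches past, black bars at the list medians). The medians of the well-measured lists lie near 0, the heat shock proteins at -0.07, and the marker lists with few counts scatter most.

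The labelled cell type was only partly visible in its markers. SOX9, the chondrocyte master regulator, was at 81.7, 93.4 and 97.0 CPM in Control and 92.0, 88.2 and 92.5 CPM in Scrambled, with overlapping groups and a difference of 0.0022 (95% interval -0.13 to 0.14). The cartilage collagen COL2A1 stood at 1.90 ± 0.226 and 1.80 ± 0.373 CPM and the proteoglycan ACAN at 1.05 ± 0.123 and 0.803 ± 0.206 CPM, and 10 of the 27 cartilage genes, with HAPLN1, COL9A1 and COL11A1 among them, had too few counts to test. At these low levels 8 of 17 tested members were bounded inside 1.5-fold. In contrast, 15 of 17 fibroblast-like matrix genes were, among them COL1A1 (-0.05) and FN1 (-0.05). Bulk RNA cannot tell fewer cells of a type from less RNA per cell. Of 12 tested genes of hypertrophy and ossification 7 lay inside 1.5-fold. RUNX2, a driver of hypertrophy, was at 58.7 ± 0.603 CPM in Control and 62.6 ± 3.46 in Scrambled. All Scrambled libraries lay above (0.09, 95% interval -0.04 to 0.23). The list had 1 member with all Scrambled libraries above Control and 1 below, 8.33% each, beside 3.66% and 3.14% of all genes. Of 22 proteases and inhibitors of matrix turnover 17 lay inside 1.5-fold, with MMP1 at 0.10 (-0.10 to 0.30) and TIMP1 at 0.02 (-0.11 to 0.16), and MMP9, near 2 CPM, at 0.43 (-0.08 to 0.94).

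Markers of other cell types summed to overlapping levels in the groups. The immune list summed to 11.1 to 15.9 CPM in Control and 11.3 to 16.3 CPM in Scrambled, with 6 of 12 members tested, PTPRC at 10 counts in the 6 libraries and MS4A1 listed at 0. The endothelial list summed to 8.18 to 10.9 and 7.94 to 11.2 CPM, with 7 of 10 tested and EMCN listed at 0. Epithelial markers summed to 349.9 to 374.3 and 342.3 to 368.7 CPM, nearly all from the keratins KRT8 and KRT18, with EPCAM at 31 counts. Neural markers summed to 53.4 to 56.1 and 54.9 to 61.2 CPM, and adipocyte and muscle markers to 3.40 to 4.75 and 3.29 to 4.13 CPM. ESAM, an endothelial adhesion molecule under 1 CPM, had all Scrambled libraries below Control (-0.80, 95% interval -1.60 to -0.0023). It was the only such member of its list, 14.3% of 7 tested, beside 3.14% of all genes.

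Carbonic anhydrases, the family of the enzyme in the study's title, were measured less precisely than most genes. Of 15 members 8 had enough counts to test and 3 were bounded inside 1.5-fold: CA2, the mitochondrial CA5B (0.05) and CA11 (0.10). CA14 had all Scrambled libraries above Control (2.04 ± 0.124 CPM against 2.70 ± 0.429, SD, n = 3, log2 difference 0.40). It was the only such member of the 8 tested, or 12.5%, beside 3.66% of all genes. CA12, a membrane enzyme, differed by -0.33 (95% interval -0.75 to 0.10). CA9, the hypoxia-induced member, had 1.01, 0.732 and 0.939 CPM in Control and 1.29, 0.849 and 0.981 CPM in Scrambled, yet its interval reached 8.07-fold. The fit shares 1 spread over 9 libraries, and CA9 was at 13.6, 2.35 and 1.13 CPM in the CA2 shRNA libraries. Fitted on the 6 Control and Scrambled libraries alone, its interval reached 1.77-fold, and that of NDRG1, another hypoxia target, 1.24-fold in place of 3.13-fold. Of 23 acid-base and lactate transporters 19 lay inside 1.5-fold, including the exchanger SLC4A2 (-0.06) and the lactate carriers SLC16A1 (-0.02) and SLC16A3 (-0.01).

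Energy metabolism was measured closely apart from the mitochondrial transcripts. Of 23 glycolytic genes 22 lay inside 1.5-fold, with GAPDH at -0.07 (95% interval -0.20 to 0.06), PKM at -0.03 and LDHA at -0.05. PGK1 was the only one whose groups did not overlap, at 286.7 ± 4.02 CPM in Control and 316.2 ± 8.12 in Scrambled (SD, n = 3, log2 difference 0.14, edgeR adjusted p 0.9997). PGK1 is 4.35% of the glycolytic list, beside 3.66% of all genes above Control. In the tricarboxylic acid cycle 22 of 23 were inside 1.2-fold, the exception being SDHD (-0.44, 95% interval -1.10 to 0.23). The 13 proteins encoded by mitochondrial DNA summed to 59250, 59054 and 40681 CPM in Control and 61912, 40537 and 68644 CPM in Scrambled, low in Control 3 and Scrambled 2. With all libraries 2 of the 13 were bounded inside 1.5-fold and the median difference was 0.11. Without those libraries 12 were, with a median of 0.14. Those libraries had been set apart by their low mitochondrial share, so narrower intervals without them follow from that choice. The median ranged from -0.05 to 0.31 over the alternatives, so it changed sign. Hypoxia targets were inside 1.5-fold in 20 of 23 cases, TGF-beta targets in 21 of 21, YAP and TEAD targets in 22 of 22 and cholesterol genes in 19 of 24. CCN2, a target of both TGF-beta and YAP, had all Scrambled libraries below Control (-0.10, 95% interval -0.21 to 0.02), as did LATS2 (-0.10) and CCN1 (-0.07) among 3 of 22 YAP targets (13.6%, beside 3.14% of all genes). Among TGF-beta targets 4 of 21 (19%) had all Scrambled libraries below Control, among them CCN2, CNN1 (-0.24) and BAMBI, a decoy receptor of the pathway (-0.26, 95% interval -0.50 to -0.02, edgeR adjusted p 0.9997).

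The widest intervals at 10 CPM or more belonged to transcripts that varied between libraries of one group. NEAT1, the nuclear RNA that scaffolds paraspeckles, had 680.0, 312.5 and 159.2 CPM in Control and 617.8, 233.4 and 645.4 CPM in Scrambled, so the groups overlapped and its interval reached 3.82-fold. Its low libraries included Control 3 and Scrambled 2, and without them the interval reached 3.33-fold. MALAT1 varied the same way, at 1013 ± 369.9 CPM in Control and 1200 ± 295.5 in Scrambled (SD, n = 3), and its interval reached 2.06-fold with all libraries and 1.82-fold without those. The mitochondrial ribosomal RNAs MT-RNR2 (11.5 to 100.8 CPM in Control) and MT-RNR1 (7.71 to 46.3 CPM) reached 10.5-fold and 6.32-fold in libraries made after ribosomal RNA removal. TMED7, a cargo receptor of the secretory pathway (3.07-fold), and PCLAF, a partner of PCNA (2.61-fold), completed the 5 widest.

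The same fit, which held all 9 libraries throughout, found many differences in the comparisons with the CA2 shRNA group. It called 3348 genes (16.9%) against Scrambled and 2906 (14.7%) against Control, at a median interval half-width of 0.27 on the log2 scale in each, next to 0.27 for Scrambled against Control. PPDPF, picked for its size in those comparisons, had 461.9, 510.4 and 525.1 CPM in Control, 502.2, 505.6 and 460.5 CPM in Scrambled, and 135.9, 130.6 and 134.6 CPM with the CA2 shRNA. Its Scrambled minus Control difference was -0.03 (95% interval -0.15 to 0.09). The glucose transporter SLC2A3, picked in the same way, had 10.2, 13.0 and 12.4 CPM in Control, 11.9, 12.5 and 11.3 CPM in Scrambled and 40.2, 32.9 and 33.2 CPM with the CA2 shRNA, with a Scrambled minus Control difference of 0.0072 (95% interval -0.22 to 0.23). The comparisons share libraries, so these values are given side by side only.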

How the data were processed

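Total RNA was extracted with an RNeasy kit and depleted of ribosomal RNA with FastSelect, per the labels' protocols. Each library has 1 deposited table, and per the file headers it lists for every gene a count, a CPM and an RPKM that the authors computed. Per the submitters' processing notes, the tools were STAR 2.5.1a, bcl2fastq and Subread's featureCounts 1.4.6-p5, with the build GRCh38. Not given in the sources used here: annotation release, strand setting and treatment of multi-mapping reads, so overlapping genes and near-identical copies are uncertain. The deposited CPM and RPKM were recomputed from the counts without a difference, and tests used the counts. Symbols came from a reference table (60401) and GENCODE 29 (246).

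Counts of 9 libraries (3 groups of 3) were filtered with filterByExpr and scaled with TMM in edgeR 4.0.16 (R 4.3.3). The quasi-likelihood F test had 1 term per group, 6 residual degrees of freedom and Benjamini-Hochberg adjustment over 19812 genes, with a threshold of 0.05. The 95% intervals used the model's standard errors and moderated degrees of freedom. Their coverage was tested on counts simulated independently for each library, with the spread estimated from these data. Such counts hold no variation shared between libraries, so coverage under shared variation was not tested. Levels are TMM-scaled CPM. Alternatives used DESeq2 1.42.0, limma 3.58.1, other scalings and filters, each library left out, and a replicate block. Promoter windows were RefSeq's for GRCh38.p14. Named genes were CA2, any gene past the threshold, the 8 smallest p on each side among protein-coding genes of at least 2 CPM whose groups do not overlap, the 3 narrowest and 5 widest intervals, and from each list 2 members by level and 2 by difference. Other members are named after their values were seen. Counts and medians include some genes that are not reported here by name. The comparison and the lists were chosen with earlier results of these data known.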

Additional observations from a re-analysis of the deposited data

How the results depend on the processing

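Over 19 alternative settings the count of genes that passed in Scrambled against Control stayed at 0 in 17. It was 1 with DESeq2 (TAS1R1) and 7 without the filter on low counts (TAS1R1, RPL39P3, RPL18AP3, CEP192-DT, BZW1-AS1, COX6A1P1 and 1 gene not reported here). RPL39P3 is a pseudogene with a near-identical parent. The cause was not tested. At an unadjusted p under 0.05 there were 1550 genes without the filter, 329 with DESeq2, 1048 without Control 3 and Scrambled 2, and 324 to 2009 when a single library was left out. Without the filter, which admits 43350 genes, the median half-width was 1.25 and the median absolute difference 0.24. The CA2 shRNA against Scrambled count ranged from 2072 (without Scrambled 3) to 3788 when a single library was left out. Genes bounded inside 2-fold numbered 15536 to 17198 over the alternatives, inside 1.5-fold 11894 to 13162 and inside 1.2-fold 5690 to 7799. Control and Scrambled libraries share replicate numbers. Deviations of libraries of the same number had correlations of 0.11, -0.05 and -0.19, without a shared sign. So few values cannot decide whether the numbers pair the libraries, and the main fit did not pair them. A fit with the replicate block called 0 genes (lowest adjusted p 0.126) with 618 at an unadjusted p under 0.05. Of 159 named genes, 107 kept the sign of their difference under all 19 alternatives and 52 did not (MT-RNR1 ranged from -1.05 to 0.22), none of which passed the test in the opposite direction. Of the single values, 2990 moved by less than the largest SD between replicates among the 3 groups, 13 by more, and 4 came to pass. The CA2 shRNA group counts among these groups, so the yardstick is wide for genes that vary within it, such as CA9. With 3 libraries per group, genes at low CPM are limited by depth and all genes by the number of libraries.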
